A study of Mus musculus with 4 samples.

Results

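Expression of 8 genes was described in mouse T helper 17 (Th17) cells by RNA sequencing. They are known as modulators of Th17 pathogenicity: Cd5l, Gpr65, Fcmr, Pdpn, Procr, Tmem176a, Tmem176b and Cd6. The 8 were chosen by name and found through their gene identifiers, 8 of the 50600 genes in each deposited table. The 4 libraries, replicates 1 to 4, form a single group of primary Th17 cells of mouse strain C57BL/6NJ, with no other genotype, treatment or contrast. The linked culture protocol is for differentiating CD4 T cells, the name of the counting output carries 48 hours, and neither the cytokines used nor the sex and age of the animals are given in the labels. All 4 libraries carry the same donor label, and nothing in the labels tells separate cultures or animals apart, so p-values measure only the spread between these libraries, which may be partly technical. The shared donor label did not match the sex-linked genes. These read as female in replicates 1 and 2 and as male in replicates 3 and 4. The spread between the libraries therefore also takes in any difference between these pairs. In replicates 1 to 4, Xist, the X-linked RNA, had levels of 132, 131, 0.329 and 0.496 TPM (a level per exon length, scaled to the sum of the library), and the Y-linked gene Eif2s3y had levels of 0.282, 0.239, 65.5 and 58.4 TPM.

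Th17 cells, a CD4 T cell type named for its cytokine IL-17, guard mucosal surfaces. Depending on the cytokines they meet, they can also drive autoimmune inflammation such as experimental autoimmune encephalomyelitis (EAE), and the term pathogenicity refers to that ability. Of the 8 genes, Cd5l, Pdpn and Procr have been reported to restrain it and Gpr65, Fcmr and Cd6 to promote it, while Tmem176a and Tmem176b are membrane proteins found in IL-17-producing lymphocytes. Cells labelled Th17 were checked against a marker list: 11 of 11 Th17 and T cell markers were at 1 TPM or more in every library, led by the cytokine genes Il17f and Il17a.

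All 8 genes had counts in every library, and 7 of them had means above the median of all detected protein-coding genes. Cd6, a T cell surface receptor, led with a mean of 697 TPM, ranking 187 among 21764 protein-coding genes, and Pdpn, which encodes the mucin-like glycoprotein podoplanin, ranked 261 with a mean of 546 TPM. Gpr65, Tmem176b, Cd5l and Tmem176a followed with means between 166 and 299.6 TPM, and Procr, the endothelial protein C receptor, had a mean of 59.1 TPM. Fcmr, the receptor for the Fc part of IgM, was far lower at 2.23 TPM and ranked 9749. With detection set at 1 TPM or more in every library, 8 of 8 genes were detected, against 10223 of all protein-coding genes, or 47%. The median of the 8 means was 263 TPM, beside 31.3 TPM over all detected protein-coding genes. Of the 100-base windows of their transcripts, 0% were found letter for letter in an annotated transcript of another gene. The opposite strand and sequence outside annotated transcripts were not searched. The check was made because fragments with several positions were left uncounted, and it cannot show that none were lost.

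**Figure D1:**
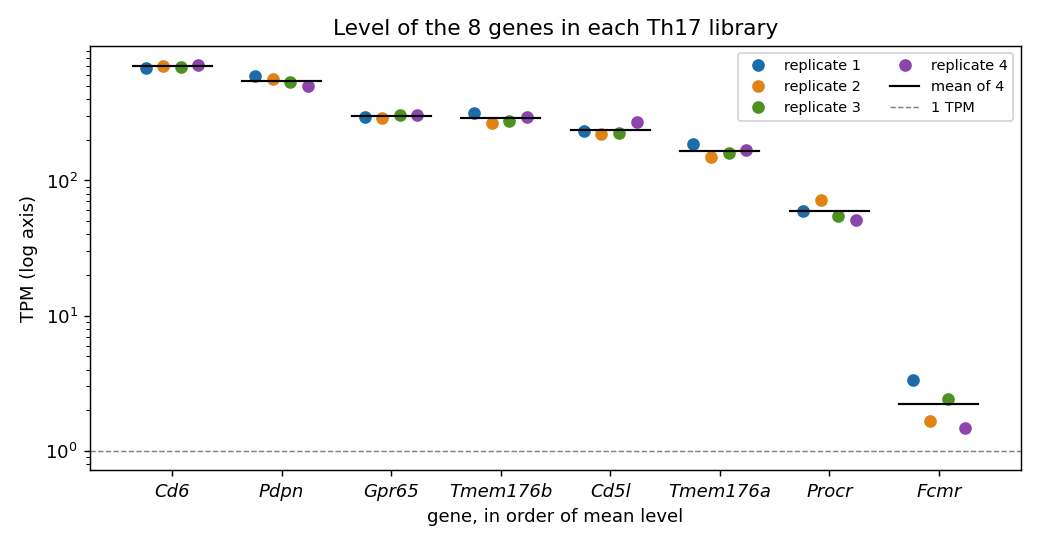
Level of each of the 8 genes in TPM on a log axis, with 1 point per library and a line at the mean of the 4 libraries. Cd6 lies highest near 697 TPM, 7 genes lie at 50.8 TPM or more in every library, and Fcmr lies between 1.47 and 3.37 TPM, just above the dashed line at 1 TPM.

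Neighbours in this order were compared within each library as log2 ratios of TPM. Cd6 exceeded Pdpn by 0.35 ± 0.13 (SD, n = 4), Pdpn exceeded Gpr65 by 0.86 ± 0.13, Cd5l exceeded Tmem176a by 0.52 ± 0.15, Tmem176a exceeded Procr by 1.49 ± 0.29 and Procr exceeded Fcmr by 4.73 ± 0.55, each in 4 of 4 libraries with ranges of TPM that did not overlap. In CPM, counts scaled to the library total with no regard to length, Cd5l was instead below Tmem176a, by -0.39. Tmem176b exceeded Cd5l by 0.28 ± 0.12 in 4 of 4 libraries, although their ranges of TPM overlapped. Gpr65 and Tmem176b did not differ beyond their spread, with a log2 ratio of 0.06 ± 0.11 and Gpr65 higher in 3 of 4 libraries (exact two-sided sign-flip p = 0.375), and in CPM the ratio was -0.14. With 4 libraries there are 16 sign patterns, and the smallest exact p is 0.125, which is the value for every other pair given in this report (0.134 after Benjamini-Hochberg adjustment over 15 pairs). No pair could therefore pass 0.05, and the orders are described by the counts of libraries and the spread. Neighbours were paired by sorting the means of these same libraries, so the direction of their ratios is no independent support for the order.

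Cd6 and Cd5l belong to the group B scavenger receptor cysteine-rich (SRCR) proteins, and both stood high here. CD6 is a transmembrane receptor that binds ALCAM (CD166) and CDCP1 (CD318) on other cells and docks signalling proteins at the T cell synapse. Cd6 (ENSMUSG00000024670.16, chromosome 19, 10789341 to 10830058, minus strand, mm10) was at 681, 708, 687 and 712 TPM in replicates 1 to 4, or 697 ± 15.3 (SD, n = 4). The 4 libraries lay close together, with a coefficient of variation of 2.19%, below the median of 3.54% over 7905 protein-coding genes at a mean of at least 10 TPM. Its paralogue Cd5, an inhibitory co-receptor of T cells, lies 50.4 kb away on the same strand and was at 1614 ± 4.88 TPM. Cd6 was below Cd5 in 4 of 4 libraries, by a log2 ratio of -1.21 ± 0.03 in TPM.

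The binding partners of CD6 were found at uneven levels. Of 9 genes listed as ligands or intracellular partners of CD6, 8 were detected, with a median of 88.4 TPM. The highest were Lcp2 (405 ± 17.0 TPM), the adaptor SLP-76 that docks on the CD6 tail, Zap70 (282 ± 10.1 TPM), the kinase next to the T cell receptor, Vav1 (221 ± 3.81 TPM) and the adaptor Grb2 (135 ± 4.03 TPM). The ligand gene Alcam was at 7.54 ± 0.474 TPM, and Cd6 exceeded it by a log2 ratio of 6.51 ± 0.09 in 4 of 4 libraries. Cdcp1, the gene of the other ligand, was the single member of this list below detection, at 0.12 ± 0.0652 TPM.

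CD5L, also called AIM, is a secreted SRCR protein best known from macrophages, and in Th17 cells it was reported to shift lipid synthesis. Cd5l (ENSMUSG00000015854.7, chromosome 3, 87357881 to 87371073, plus strand, mm10) was at 233, 220, 224 and 271 TPM in replicates 1 to 4, or 237 ± 23.0 (SD, n = 4). Replicate 4 stood above the other 3, which lay between 220 and 233 TPM. Cd5l was below Cd6 in 4 of 4 libraries, by a log2 ratio of -1.56 ± 0.12 in TPM. Over the whole list of 8 group B genes only Cd5, Cd6 and Cd5l were detected. Ssc4d lay at the border of detection with 1.02 ± 0.0942 TPM, and Cd163l1 and Dmbt1 had 0 counts in every library, which allows up to 3 counts in each, or 0.0516 to 0.105 CPM (counting error only).

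Macrophage markers were examined because Cd5l is a macrophage gene. Of 12 such markers 1 was detected, Cd68 at 6.46 ± 0.574 TPM, and their summed level was 6.55 to 7.79 TPM per library, far below the 220 to 271 TPM of Cd5l. The markers C1qa, C1qb, C1qc, Mertk, Marco, Lyz2, Spic and Clec4f had 0 counts in every library. Of 8 lipid genes linked to CD5L, 7 were detected, with a median of 58.0 TPM. They were led by Scd2 (611 ± 54.1 TPM), a fatty acid desaturase, Fasn (252 ± 8.28 TPM), fatty acid synthase, Cyp51 (221 ± 5.55 TPM) and Sc5d (59.1 ± 1.92 TPM), both of cholesterol synthesis.

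The bases just before the start of Cd5l are shown because its level in replicate 4 is taken up again in the last comparison, and those of Pdpn and Procr because both genes lie in a reported coinhibitory module and were higher in the same pair of libraries. Sequences are RefSeq's on build GRCm38.p6, which has the coordinates of mm10, 5′ to 3′ on the strand of the gene, and entries were found for 7 of the 8 genes, all but Cd6. Capitals mark matches to 4 short motifs that were searched on both strands of the 250 bases upstream of each RefSeq start: AGGTCA, the core of sites for ROR and other nuclear receptors, TGANTCA, the AP-1 motif, TTCNNNGAA, the STAT motif, and TGCTGAC, a MAF half-site, whose end TGAC can overlap the start of the AP-1 motif. Procr is shown only where its window lies outside annotated exons.
Cd5l, chr3:87357631-87357880, plus strand: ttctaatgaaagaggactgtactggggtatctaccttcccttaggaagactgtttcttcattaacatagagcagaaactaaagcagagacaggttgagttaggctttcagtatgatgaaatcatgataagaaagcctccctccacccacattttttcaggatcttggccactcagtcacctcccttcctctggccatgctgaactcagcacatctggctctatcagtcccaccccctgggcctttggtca
Pdpn, chr4:143299565-143299814, minus strand: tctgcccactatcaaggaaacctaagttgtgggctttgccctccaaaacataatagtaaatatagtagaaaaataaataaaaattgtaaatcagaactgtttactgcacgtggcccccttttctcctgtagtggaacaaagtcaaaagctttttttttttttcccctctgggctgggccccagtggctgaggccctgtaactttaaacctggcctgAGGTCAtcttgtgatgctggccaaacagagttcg
Procr, chr2:155750967-155751116, plus strand: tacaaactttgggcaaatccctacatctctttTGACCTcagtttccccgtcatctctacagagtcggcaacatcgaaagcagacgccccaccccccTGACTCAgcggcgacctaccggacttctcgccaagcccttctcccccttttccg

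Cd5l held none of the 4 motifs in its 250 bases. Pdpn held AGGTCA at 34 to 29 bases before its start. Procr held TGACCT, the reverse complement of AGGTCA, at 218 to 213 bases before its RefSeq start, and TGACTCA, a form of the AP-1 motif, at 154 to 148 bases. The windows of Gpr65, Fcmr, Tmem176a and Tmem176b held no match. Among all 32851 RefSeq windows of 250 bases, 14.0% held AGGTCA, 6.75% TGANTCA, 7.02% TTCNNNGAA and 3.81% TGCTGAC. These are matches of letters, and binding was not measured. The windows of Cd5l and Procr differed in base content, with 46.8% G or C and 0 CpG pairs for Cd5l against 61.6% and 13 CpG pairs for the full 250 bases of Procr, beside a median of 52.4% and 6 CpG pairs over all windows.

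Gpr65 encodes a G protein-coupled receptor that is activated by extracellular protons, and it was the third highest of the 8 genes. Gpr65 (ENSMUSG00000021886.7, chromosome 12, 98268635 to 98276644, plus strand, mm10) was at 296, 292, 305 and 306 TPM in replicates 1 to 4, or 299.6 ± 6.62 (SD, n = 4), a coefficient of variation of 2.21%. The 4 libraries hardly differed. Of related receptors, Gpr132 was at 50.5 ± 1.57 TPM and Gpr4 near 0 at 0.0212 ± 0.0262 TPM. Gpr65 exceeded Gpr132 by a log2 ratio of 2.57 ± 0.05 in TPM, in 4 of 4 libraries. The antisense gene Gm47566 overlaps Gpr65 and was counted apart by strand, with a mean of 0.628 TPM and counts in replicate 4 only.

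Fcmr, also called TOSO, binds IgM, and it was the lowest of the 8 genes. Fcmr (ENSMUSG00000042474.6, chromosome 1, 130865669 to 130880791, plus strand, mm10) had 50, 32, 73 and 33 counts in replicates 1 to 4, against at least 1039 counts per library for each of the other 7 genes. Its level was 3.37 TPM in replicate 1 (exact Poisson 95% interval 2.50 to 4.45), 1.66 in replicate 2 (1.14 to 2.35), 2.40 in replicate 3 (1.89 to 3.02) and 1.47 in replicate 4 (1.01 to 2.06), or 2.23 ± 0.864 (SD, n = 4). The intervals cover counting error only, and that of replicate 1 lies above those of replicates 2 and 4 and overlaps that of replicate 3. Gpr65 exceeded Fcmr, a gene that like it was reported to promote pathogenicity, by a log2 ratio of 7.08 ± 0.53 in TPM, in 4 of 4 libraries.

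Few relatives of Fcmr were detected. Of 16 genes for Fc receptors and the IgM heavy chain, 3 were detected: Fcrl1, an Fc receptor-like gene known from B cells, at 33.0 ± 2.57 TPM, the IgM heavy chain gene Ighm at 19.1 ± 2.25 TPM, and Fcmr itself. The next highest gene, Fcer1g, the common Fc receptor gamma chain, was at 0.349 ± 0.159 TPM, and 7 of the 16 had no count in any library. Pigr, the receptor that carries polymeric IgA and IgM across epithelia, was at 0.118 ± 0.0807 TPM, and Fcmr exceeded it in 4 of 4 libraries. Since Pigr was near 0, the size of the log2 ratio depended on the pseudocount: it was 3.41 ± 0.46 with 0.1 TPM added, 4.24 with 0.01 and 1.495 with 1, and 2.39 in CPM.

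B cells are the main carriers of Fcmr, and their markers were of the same order as Fcmr. Their sum was 1.44 to 1.91 TPM per library, against 1.47 to 3.37 TPM for Fcmr. None of the 8 B cell markers was detected, with Ebf1 the highest at 0.877 ± 0.0798 TPM, followed by Cd79b at 0.62 ± 0.21 TPM, and Ms4a1 had 0 counts in every library. The part of other cells in the level of Fcmr was not tested. In bulk libraries, fewer cells of a type and less RNA per cell cannot be told apart.

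Pdpn encodes podoplanin, the ligand of the platelet receptor CLEC-2, and was reported to restrain T cells in inflamed tissue. Pdpn (ENSMUSG00000028583.14, chromosome 4, 143267431 to 143299564, minus strand, mm10) was at 592, 561, 537 and 496 TPM in replicates 1 to 4, or 546 ± 40.5 (SD, n = 4). Replicates 1 and 2 were above replicates 3 and 4. Of 8 genes listed as partners of podoplanin, 6 were detected, with a median of 73.5 TPM. The ERM proteins, which tie the podoplanin tail to actin, were highest: Msn was at 559 ± 11.4 TPM, Ezr at 291 ± 16.1 TPM and Rdx at 217 ± 3.65 TPM. Cd44, which associates with podoplanin in the membrane, was at 112 ± 4.15 TPM. Lgals8, the gene of galectin-8, a secreted ligand, was at 4.79 ± 0.809 TPM, while Clec1b, the gene of CLEC-2, was at 0.0113 ± 0.0131 TPM and Ccl21a had 0 counts.

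Procr encodes a receptor for protein C, known from endothelium and stem cells and reported to restrain Th17 pathogenicity. Procr (ENSMUSG00000027611.12, chromosome 2, 155751117 to 155755471, plus strand, mm10) was at 59.9, 71.3, 54.6 and 50.8 TPM in replicates 1 to 4, or 59.1 ± 8.92 (SD, n = 4). As for Pdpn, replicates 1 and 2 were above replicates 3 and 4, and replicate 2 was the highest. Of 10 genes of the protein C pathway, Procr included, 5 were detected and 4 had no count in any library, namely protein C itself (Proc), prothrombin (F2), factor V (F5) and Serpina5. After Procr, the highest were F2r (40.8 ± 3.48 TPM), the thrombin receptor PAR1 that also signals for protein C, F3 (7.20 ± 0.38 TPM), tissue factor, and Pros1 (4.60 ± 0.728 TPM), protein S.

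Pdpn and Procr were both described in a coinhibitory gene module that IL-27 induces in T cells. Of its 9 listed genes 7 were detected, with a median of 59.1 TPM. Pdcd1, the inhibitory receptor PD-1, stood beside Pdpn at 556 ± 21.9 TPM, and Maf, a transcription factor of the module, was at 139 ± 7.47 TPM and Il10 at 126 ± 12.2 TPM. Prdm1 (0.611 ± 0.147 TPM), the other factor of the module, and Havcr2 (0.182 ± 0.0574 TPM), the receptor TIM-3, were under 1 TPM in every library. Pdpn exceeded Procr by a log2 ratio of 3.21 ± 0.16 in TPM, in 4 of 4 libraries.

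The division of the libraries seen for Pdpn and Procr, replicates 1 and 2 against 3 and 4, was also that of the sex-linked genes Xist and Eif2s3y. Over replicates 1 and 2 the mean was 576 TPM for Pdpn and 65.6 TPM for Procr, and over replicates 3 and 4 it was 516 and 52.7 TPM. Whether the 2 genes move with this division was not tested. Gpr65 was divided the other way, with a mean of 294 TPM over replicates 1 and 2 and 305 TPM over replicates 3 and 4, and in the other 5 genes the 2 pairs of libraries overlapped. Genes that are not among these modulators were divided too: Il9 and Il24 as Pdpn and Procr were, and Cd5 as Gpr65 was, while the pairs overlapped for Odc1. The share of all genes divided in either way was not counted. The division therefore cannot be said to set Pdpn, Procr or Gpr65 apart from other genes.

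Stromal and endothelial markers were set beside Pdpn and Procr, which such cells are known to make. Of 7 stromal markers none was detected, and their sum was 0.141 to 0.338 TPM per library against 496 to 592 TPM for Pdpn. Col3a1 and Ccl19 had 0 counts in every library. Of 6 endothelial markers 1 was detected, Pecam1, which T cells also use, at 6.27 ± 0.304 TPM. The summed endothelial level was 5.92 to 6.58 TPM against 50.8 to 71.3 TPM for Procr, and Cdh5, Kdr and Emcn had 0 counts in every library.

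**Figure D2:**
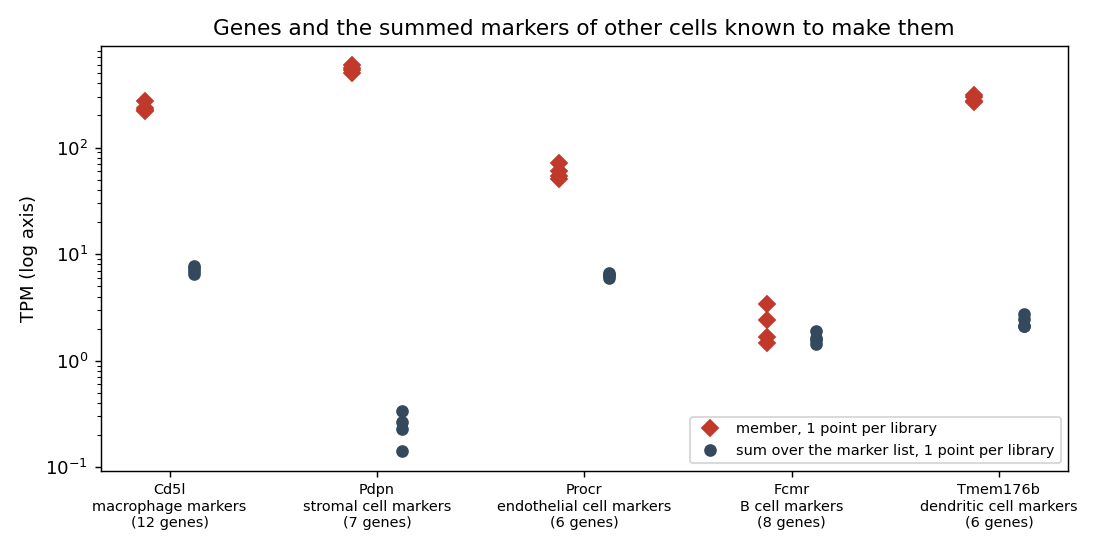
Level in TPM, on a log axis, of 5 of the genes (diamonds) and the summed level of marker genes of another cell type known to make each (circles), with 1 point per library. Cd5l, Pdpn, Procr and Tmem176b lie above the sums in every library, while Fcmr, at 1.47 to 3.37 TPM, overlaps the B cell sum of 1.44 to 1.91 TPM.

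Tmem176a and Tmem176b encode related membrane proteins of the MS4A type that act in intracellular vesicles, and both were high. Tmem176b (ENSMUSG00000029810.15, chromosome 6, 48833818 to 48841496, minus strand, mm10) was at 314, 268, 273 and 297 TPM in replicates 1 to 4, or 288 ± 21.2 (SD, n = 4). Tmem176a (ENSMUSG00000023367.14, chromosome 6, 48840919 to 48847071, plus strand, mm10) was at 187, 150, 159 and 167 TPM, or 166 ± 15.4. The order of the libraries was the same for both genes: replicate 1 was highest, then replicates 4, 3 and 2. Tmem176b exceeded Tmem176a by a log2 ratio of 0.80 ± 0.04 in TPM, in 4 of 4 libraries, and by 0.11 in CPM, which leaves out the exon lengths of 2371 bases for Tmem176b and 3810 for Tmem176a.

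The gene models of Tmem176a and Tmem176b overlap at their starts on opposite strands. Strand was read in the counting, so each was counted on its own strand. Of 18 genes of the MS4A and TMEM176 family, 4 were detected: the pair itself, Ms4a6b at 13.6 ± 1.13 TPM and Ms4a4b at 5.35 ± 0.882 TPM, both known from T cells, while 9 genes had no count in any library. Dendritic cells also make Tmem176a and Tmem176b, and 1 of 6 dendritic cell markers was detected, H2-Ab1 at 1.45 ± 0.0611 TPM. The sum of these markers was 2.10 to 2.73 TPM per library against 268 to 314 TPM for Tmem176b, and Clec9a had 0 counts. Markers of gamma-delta T cells and innate lymphoid cells, other carriers of the pair, summed to 1.85 to 3.52 TPM, with Trdc at 1.28 ± 0.29 TPM the single one of 5 detected and Ncr1 at 0 counts.

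**Figure D3:**
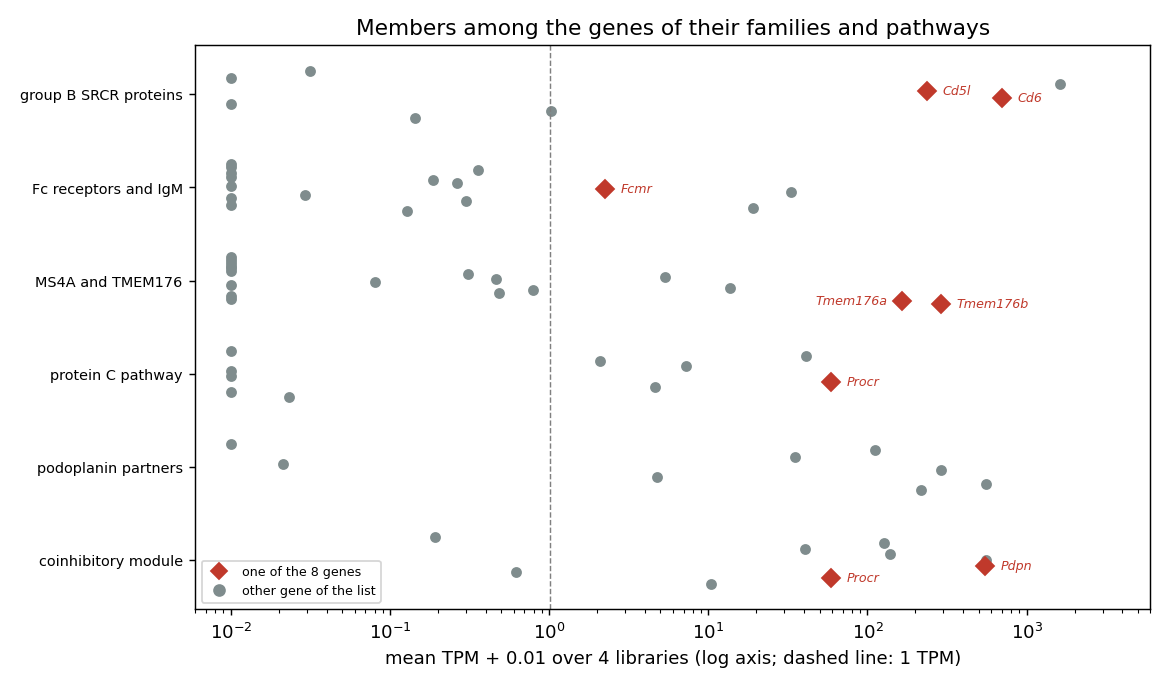
Mean level over the 4 libraries, in TPM plus 0.01 on a log axis, of the genes in 6 family and pathway lists, with the 7 of the 8 genes in these lists as diamonds and the other list genes as circles. The Tmem176 pair is the highest of its family, Cd6 and Cd5l follow Cd5, and Fcmr is the lowest of 3 detected genes in its list.

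Genes of both reported roles were detected in every library. The genes reported to restrain pathogenicity were Pdpn, Cd5l and Procr, with a median of 237 TPM, and those reported to promote it were Cd6, Gpr65 and Fcmr, with a median of 299.6 TPM. Of 7 genes of the non-pathogenic Th17 signature 7 were detected, with a median of 126 TPM, and Il9, Maf, Ahr and Il10 were the highest. Of 16 genes of the pathogenic signature 14 were detected, with a median of 11.6 TPM, and Ccl4, Ccl3, Lrmp and Lag3 were the highest. No test was made between these lists.

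Other reported modulators that are not among the 8 genes were also present. Of 11 such genes 10 were detected, with a median of 72.5 TPM. Odc1, the enzyme that starts polyamine synthesis, was at 2192 ± 40.3 TPM, Bhlhe40, a transcription factor of cytokine-producing T cells, at 395 ± 35.5 TPM, Zbtb32 at 219 ± 19.3 TPM and Rbpj, the nuclear partner of Notch, at 146 ± 2.05 TPM. Zbtb32 was at 215, 204, 210 and 247 TPM in replicates 1 to 4, with replicate 4 the highest as it was for Cd5l. Bhlhe40 and Rbpj were also highest in replicate 4, at 429 and 149 TPM, and Odc1 was highest in replicate 3, at 2244 TPM. The share of all genes that were highest in replicate 4 was not counted.

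The genes beside the 8 in the genome were at mixed levels. Cd5l lies in a cluster of Fc receptor-like genes, 5.31 kb before Fcrl1 on the same strand, which was at 33.0 TPM, while Fcrls, 94.1 kb to the other side, had 0 counts. Fcmr lies between Pigr, 13.4 kb away, and the cytokine gene Il24, whose opposite-strand model ends 1.28 kb from that of Fcmr. Il24 was at 40.2, 40.1, 31.2 and 32.1 TPM in replicates 1 to 4, or 35.9 ± 4.91, well above Fcmr in every library. Fragments were assigned by strand, so the 2 genes were counted apart.

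Gpr65, Pdpn and Procr stood above both of their nearest neighbours in TPM. Gpr65 lies 9.18 kb from Galc (13.2 ± 0.293 TPM), a lysosomal enzyme gene, and 157 kb from the potassium channel gene Kcnk10 (7.17 ± 0.992 TPM). Pdpn lies 54.4 kb from Prdm2 (40.6 ± 1.49 TPM) and 50.2 kb from Lrrc38 (0 counts). Procr lies 19.9 kb from Mmp24 (0.0357 ± 0.0435 TPM) and 15.2 kb from Gm17581 (0 counts). Gm17581 is a very short gene model, from 155735810 to 155735866, so its lack of counts says little. Among genes farther from Procr, Edem2 had a lower mean (46.6 TPM). Trpc4ap (63.2 TPM), BC029722 (107 TPM) and Eif6 (359 TPM) had higher means than Procr. The Tmem176 pair lies between Gimap3 (158.9 ± 2.42 TPM), a GTPase gene of lymphocytes, and Aoc1 (13.3 ± 1.89 TPM). Tmem176b was above both in every library, and Tmem176a was below Gimap3 in replicate 2. Cd6 lies between Cd5, the higher gene, and Slc15a3 (82.8 ± 6.27 TPM).

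**Figure D4:**
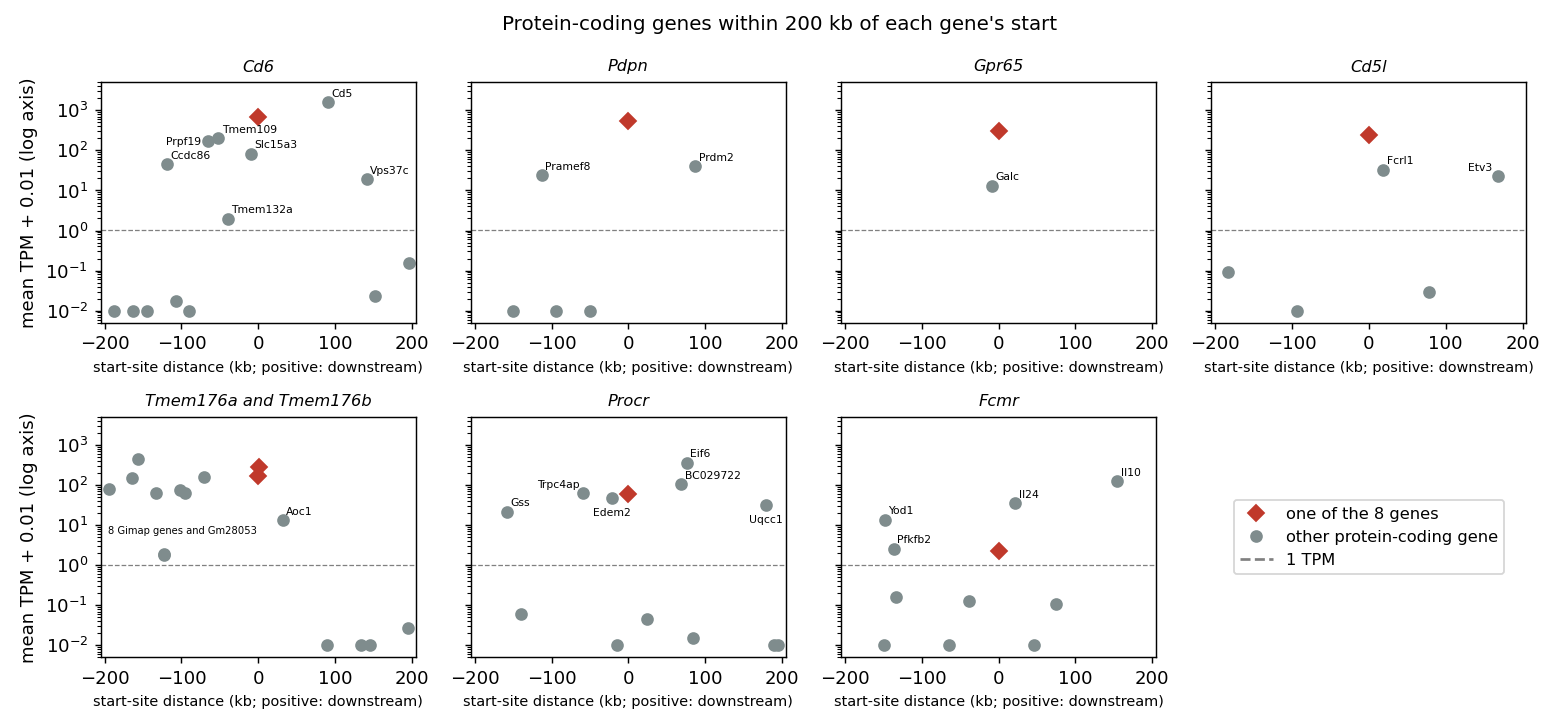
Mean level in TPM plus 0.01 (log axis) of protein-coding genes whose start lies within 200 kb of the start of each of the 8 genes, against the distance in kb along the gene's own strand. Cd6 is exceeded by Cd5, the Tmem176 pair lies beside a run of Gimap genes, and Fcmr, at 2.23 TPM, lies below Il24 and Il10.

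For each gene, protein-coding genes closest to it over the 4 libraries were found by Euclidean distance of log2 TPM, a description over 4 points. Gpr65 was closest to Tuba1c (0.04) and Ube2m (0.05), and Cd6 to Cox4i1 (0.04) and Eif3b (0.05), with 16 genes within 0.1 of Gpr65 and 10 within 0.1 of Cd6. Pdpn was closest to Itgal (0.09) and Atp5g3 (0.10), Tmem176b to Zap70 and Capns1 (0.12 each), and Tmem176a to Bcl2a1d and Zmiz2 (0.15 each). Cd5l was closest to Glipr2 (0.17) and Ube2c (0.19), and Procr to Smad3 (0.22). Fcmr had the most distant nearest genes, Hoxd1 (0.37) and Ninj2 (0.44). It also had the fewest counts, 32 to 73 per library, and counting noise at such counts widens these distances.

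The last comparison asked whether any of the 8 genes differed between the libraries, measured on counts as log2 CPM. With a Poisson test, which allows for counting noise alone, and a highest CPM at least 2 times the lowest, 1.74% of 12434 genes were called variable. Of the 8 genes, Fcmr was called, with a ratio of 2.25 (adjusted p = 0.00372, Poisson deviance with Benjamini-Hochberg adjustment). Replicate 1 lay 0.64 above the mean log2 CPM of Fcmr, and replicate 4, the lowest, at -0.49. The call was lost without replicate 1 (adjusted p = 0.0939, Poisson deviance, ratio 1.62) and without replicate 4 (adjusted p = 0.0331, ratio 1.998). With no ratio asked the Poisson test passed 8 of the 8 genes, beside 36.6% of all genes. Without a ratio, this test passes ever smaller differences as counts rise. All of the 8 but Fcmr had at least 1039 counts per library, so the 2 shares are not of genes with like counts.

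**Figure D5:**
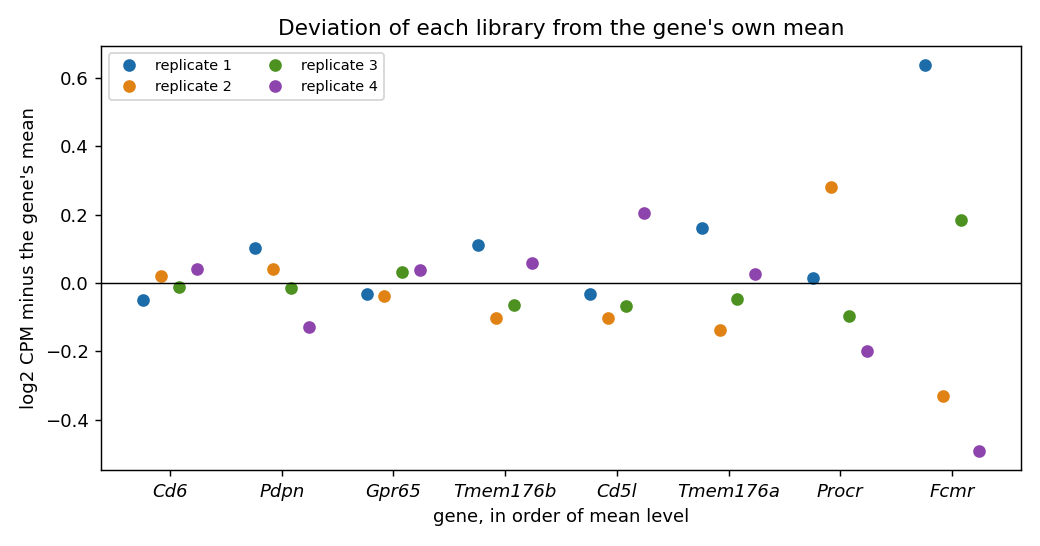
Deviation of each library from the mean log2 CPM of the gene, with 1 point per library. Cd6 and Gpr65 stay within 0.05 of their mean, Cd5l lies at 0.20 in replicate 4, Procr at 0.28 in replicate 2, and Fcmr spans from -0.49 to 0.64.

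Against genes of a like level, measured with edgeR's trended dispersion, 0.145% of the 12434 genes were called with the same 2-fold ratio, and 0 of the 8 were. At an unadjusted p under 0.05, 165 of all genes and 1 of the 8, Fcmr, met the ratio. With DESeq2's gene-wise dispersions 0 of all genes were called, so that setting says nothing about the 8. With no ratio asked, this test passed 0.523% of genes and 1 of the 8, Cd5l, whose ratio of highest to lowest CPM was 1.24 (adjusted p = 0.0385, deviance at edgeR's trended dispersion). Replicate 4 lay at 0.20 above the mean log2 CPM of Cd5l and the other libraries between -0.10 and -0.03. Without replicate 4 the ratio was 1.05 and the adjusted p was 1.00, and without replicate 1 or 2 the p was 0.596 or 1.00, while without replicate 3 it was 0.0192. With every gene that had a count in the test, it was 0.241.

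Procr came next by this test, with a ratio of 1.39 and an adjusted p of 0.169 at edgeR's trended dispersion. Replicate 2 lay 0.28 above the mean log2 CPM of Procr, and replicate 4, the lowest, at -0.20. With a replicate left out, its adjusted p was 0.0134 without replicate 1, 1.00 without replicate 2, 0.251 without replicate 3 and 1.00 without replicate 4. Tmem176a, Fcmr, Pdpn, Tmem176b, Gpr65 and Cd6 had adjusted p-values between 0.70 and 1.00, which does not show that they were equal in the 4 libraries.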

How the data were processed

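Per the file headers, the authors deposited counts of fragments per gene. They ran featureCounts 1.4.6-p4 on read pairs with both ends mapped, strand option 2 (reverse) and GENCODE M13 models. Fragments with several positions or genes were not counted. The labels name mm10, and the aligner was not given in the sources used here. The assay label reads total RNA, while the linked library protocol names poly(A) RNA. Totals were 28555677 to 58104663 counts.

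Symbols came from GENCODE M21, matched by identifier for 50376 of 50600 genes. TPM was computed here from counts and exon length. Pairs were compared as log2((TPM + 0.1)/(TPM + 0.1)) with exact sign-flip tests. Variation was tested with edgeR 4.0.16 (TMM scaling, default filter, prior count 0.5) by Poisson deviance and by negative binomial deviance at the trended dispersion, chi-square with 3 degrees of freedom. TMM factors were 0.997 to 1.01. The code was tested on simulated data.

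Members, lists and tests were chosen with earlier results of these data known. Genes named beside the 8 were, by rule, the 4 highest of each list, markers at 0, pair partners, nearest neighbours, the 2 nearest in level, Xist and the highest Y-linked gene. Alternatives were DESeq2 1.42.0 scaling and dispersions, other thresholds, CPM, and leaving out each replicate. Cdcp1, Clec1b, Ccl21a, Cd163l1, Dmbt1, Proc, F2, F5, Serpina5, Prdm1, Havcr2, Fcer1g, Lgals8 and Gm47566 were named after their values were seen. Some genes the rule picks are not reported here.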

Additional observations from a re-analysis of the deposited data

Results flagged for a closer look

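In replicate 2 the log2 ratio of Pdpn to Procr in TPM was 2.97, while in the other 3 libraries it lay between 3.28 and 3.30. The gap of replicate 2 to the nearest library was 0.949 of the whole range, above Dixon's 95% critical value for 4 samples. Procr was highest in replicate 2, at 71.3 TPM. Levels and ratios were checked in 23 groups of 4 values, and chance flags about 1 in 20 of them.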

How the results depend on the processing

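Without mitochondrially encoded genes in the sum, the levels of Cd6 (715 TPM) and Gpr65 (307 TPM) moved by more than 1 SD and those of the other 6 genes by less. Means over fewer of the same libraries cannot leave 1 SD and are no check. Of the log2 ratios, 103 of 105 alternative values kept their direction. Without length normalisation, in CPM, Gpr65 to Tmem176b turned to -0.14 and Cd5l to Tmem176a to -0.39; Tmem176a has the longer exons (3810 bases against 2036 for Cd5l). Other ratios, taken before the log2, changed by over 1.5-fold in CPM without a change of direction. Their log2 values in CPM were 1.26 for Cd6 to Pdpn, 2.40 for Tmem176a to Procr and 0.11 for Tmem176b to Tmem176a. For Cd6 to Cd5 the log2 value was -0.49, for Cd5l to Cd6 -2.30, for Cd6 to Alcam 5.46 and for Fcmr to Pigr 2.39. Fcmr to Pigr was 4.24 with a pseudocount of 0.01 and 1.495 with 1. The count of genes called variable by the Poisson test (216) was 1098 with every gene that had a count, 487 with a 1.5-fold ratio, 4550 with none, and 140 to 156 with a replicate left out. For the 8 genes that test called 8 with no ratio asked and 0 to 1 with a replicate left out. At the trended dispersion the count (18) was 75 with every gene that had a count, 41 with a 1.5-fold ratio, 65 with none and 9 to 15 with a replicate left out, and it called 1 of the 8 genes with no ratio asked. With DESeq2's gene-wise dispersions, it called 0 genes, and 0 also at an unadjusted p under 0.05; those dispersions are estimated from the same 4 counts and take up the spread under test. At edgeR's trended dispersion the unadjusted count was 165. Fcmr rests on 32 to 73 counts per library, which limits the precision of its level. No paired analysis was possible because there is 1 group.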
